A study of Mus musculus with 4 samples.

Results

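Scavenger receptors are surface proteins with which macrophages bind and take up modified lipoproteins, microbial polyanions, dying cells and haemoglobin, and mannose receptors are endocytic lectins for glycoproteins with mannose at their ends. The group described here was set by name and holds 8 genes of the 54532 in the deposited count table. Each of the 8 symbols was listed once. The rule matched names alone, although the members were chosen with earlier results of these data known. By role they are the collagenous class A receptors Msr1 (macrophage scavenger receptor, SR-A), Marco and Colec12, the HDL receptor Scarb1, the oxidized LDL receptor Olr1 (LOX-1), the stabilin Stab1, the haemoglobin-haptoglobin receptor Cd163, and the mannose receptor Mrc1 (CD206). Scavenger receptors are grouped by the ligands they share rather than by sequence. Cd163 and Mrc1 are often used as marks of alternatively activated macrophages, while Msr1 and Marco are pattern recognition receptors as well.

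The RNA came from wild-type mouse peritoneal macrophages, which the study's methods describe as elicited with thioglycollate in BALB/c mice. The 4 cultures combined 2 media with 2 additions. The medium was normal medium (0% 4T1-CM) or medium with 30% 4T1-CM, the supernatant of the mouse mammary carcinoma line 4T1, and the addition was DMSO, the vehicle, or 10 µM CH223191, an inhibitor of the aryl hydrocarbon receptor (AHR), a ligand-activated transcription factor. The comparison asks how tumour-derived signals and AHR activity shape macrophage expression. Each condition had 1 library, and differences between conditions therefore stand without replicates. The study's wild-type mice were young adults. The number of mice that supplied a culture and the duration of treatment are not given in the sources used here for these libraries.

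The libraries held 15535405 to 17557127 counted reads. All 9 macrophage markers had reads in every library, and the most abundant, Lyz2, had between 11888 and 35571 CPM (counts brought to a common library size with TMM scaling, which corrects for differences in composition). T cell markers had 0 reads, and the summed level of 3 B cell markers lay between 0.251 and 0.616 CPM. Absence of reads leaves room for up to 3 reads, which is 0.171 to 0.189 CPM depending on the library. Intervals given below are 95% intervals of counting error only. They compare these libraries, and the spread between cultures is unknown. In a culture sequenced as a whole, fewer cells of a type and less RNA per cell cannot be told apart.

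The receptors differed widely in level. Per kilobase of gene length (CPM per kilobase), the order in normal medium with DMSO ran from Colec12 at 116 and Msr1 at 63.6 through Mrc1 at 26.9, Scarb1 at 13.8 and Stab1 at 3.03 to Olr1 at 0.176 and Cd163 at 0.0115, with Marco at 0 reads. The order was the same with CH223191 in normal medium, with the last 3 places within each other's counting error or at 0 reads. With 4T1-CM and DMSO the order was Msr1 at 136, Colec12 at 134, Olr1 at 27.3, Scarb1 at 16.4, Mrc1 at 15.7, Stab1 at 6.29, Marco at 1.90 and Cd163 at 0.167. Olr1 thus stood in the third place with 4T1-CM and in the sixth without it, and Mrc1 moved from the third place to the fifth. In that library the intervals of Msr1 and Colec12 overlapped, as did those of Scarb1 and Mrc1. With 4T1-CM and CH223191, Colec12 was at 140 and Msr1 at 131, and the order of the other 6 was unchanged from 4T1-CM with DMSO. The deposited gene length of Colec12 is 3322 bases, and its gene model is shorter than that of the GENCODE M21 annotation, which bears on its level per kilobase and not on its ratios.

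**Figure D1:**
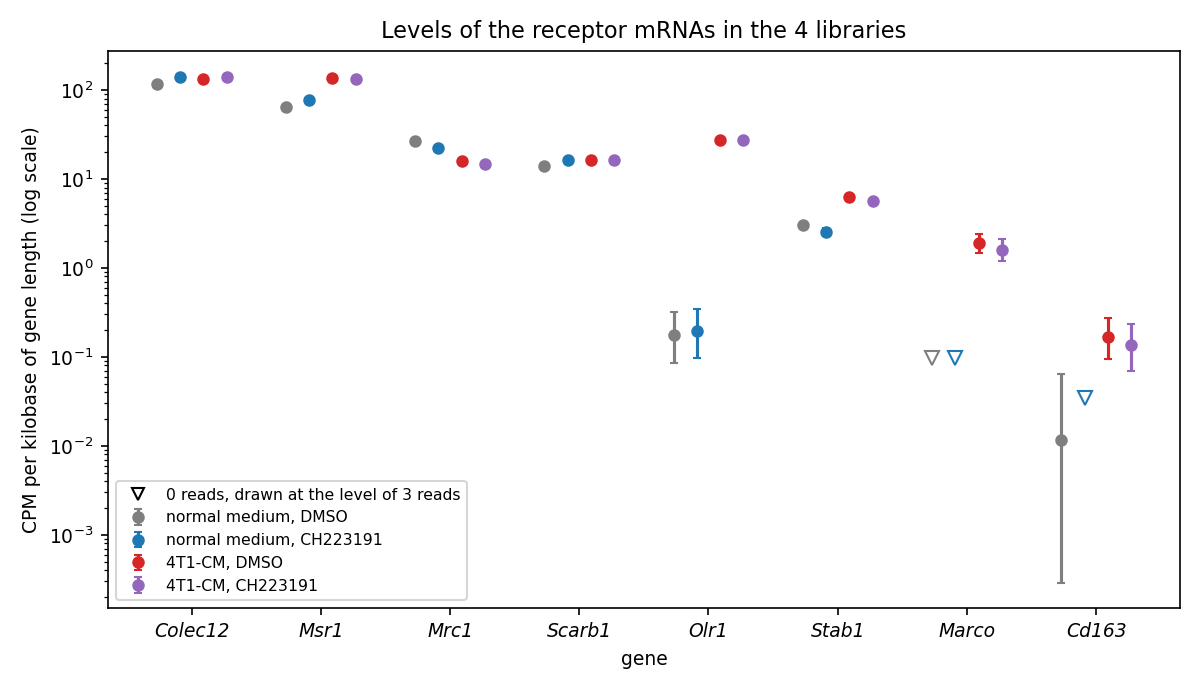
Level of each of the 8 receptor mRNAs in CPM per kilobase of gene length (log scale) in the 4 libraries, with bars for the 95% interval of counting error and open triangles, drawn at the level of 3 reads, where a library had 0 reads. Colec12 and Msr1 lie highest in every library, and Olr1, Marco and Cd163 lie near the floor in normal medium and above it with 4T1-CM.

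The upstream sequences of 5 of these genes are shown, namely those members that had a promoter entry, whatever their response. Of them, Olr1, Marco and Cd163 were close to 0 reads without 4T1-CM. Stab1 was at least 2-fold higher with it, and Mrc1 was the member that was lower. The sequences are from RefSeq (GRCm38.p6, the C57BL/6J strain, whereas the cells came from BALB/c mice) and are written 5′ to 3′ on the strand of the gene. They end at the base before the RefSeq start, except that of Mrc1, which ends 23 bases upstream of it. Bases of an annotated exon were left out at this end for Mrc1 and at the far 5′ end for Cd163. Capitals mark exact matches, on either strand, to GAGGAA (a core bound by PU.1, the factor that defines the myeloid lineage) or TGANTCA (AP-1).
Olr1: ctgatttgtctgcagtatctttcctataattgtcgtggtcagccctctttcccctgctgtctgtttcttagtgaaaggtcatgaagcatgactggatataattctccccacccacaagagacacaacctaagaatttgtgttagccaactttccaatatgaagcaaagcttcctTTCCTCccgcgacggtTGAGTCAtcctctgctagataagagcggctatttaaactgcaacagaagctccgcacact
Marco: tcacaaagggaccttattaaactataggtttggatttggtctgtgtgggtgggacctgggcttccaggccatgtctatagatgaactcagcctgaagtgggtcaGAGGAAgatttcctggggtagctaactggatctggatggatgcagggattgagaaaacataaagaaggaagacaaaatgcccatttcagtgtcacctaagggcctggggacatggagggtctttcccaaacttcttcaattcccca
Cd163: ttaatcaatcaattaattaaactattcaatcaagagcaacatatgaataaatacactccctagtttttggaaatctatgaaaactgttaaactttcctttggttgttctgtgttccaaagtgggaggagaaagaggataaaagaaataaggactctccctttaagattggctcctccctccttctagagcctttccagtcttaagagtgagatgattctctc
Stab1: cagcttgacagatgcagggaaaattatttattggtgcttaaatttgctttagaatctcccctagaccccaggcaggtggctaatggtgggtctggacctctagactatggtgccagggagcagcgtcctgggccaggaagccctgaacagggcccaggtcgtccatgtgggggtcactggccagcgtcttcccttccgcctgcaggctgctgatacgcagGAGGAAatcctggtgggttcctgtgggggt
Mrc1: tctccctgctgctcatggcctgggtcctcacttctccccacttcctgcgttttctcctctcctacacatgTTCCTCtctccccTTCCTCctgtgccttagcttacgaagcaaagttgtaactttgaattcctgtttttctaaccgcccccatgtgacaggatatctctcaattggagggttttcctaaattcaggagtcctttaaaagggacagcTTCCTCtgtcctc
In the order shown, the stretches lie at chr6:129507166-129507415 (minus strand), chr1:120505025-120505274 (minus), chr6:124304429-124304650 (plus), chr14:31168642-31168891 (minus) and chr2:14229164-14229391 (plus).

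The motifs were sought in the 250 bases upstream of the RefSeq start, and 5 of the 8 members had an entry in the table. GCGTG, the core bound by AHR with its partner, matched in 0 of these 5 windows of 250 bases, of which fewer are printed for Mrc1 and Cd163, and 28.2% of the 32851 windows of 250 bases in the table hold it. TTCNNNGAA, the STAT motif, matched in 0 of 5 and is held by 7.02% of promoters, and TGACNNNGC, the NRF2 motif, matched in 0 of 5 and is held by 10.2%. The Olr1 stretch held TGAGTCA between 60 and 54 bases upstream of its start, and 6.75% of promoters hold the AP-1 letters. GAGGAA or its complement TTCCTC was present once in Olr1, Marco and Stab1, 3 times in Mrc1 and 0 times in Cd163, beside 23.3% of all promoters with at least 1 match. Marco and Cd163 had 0 CG dinucleotides in these bases, Mrc1 had 3, Stab1 had 5 and Olr1 had 6, the median of all promoters being 6. These matches describe letters in a window, and binding was not measured.

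With 4T1-CM and DMSO, 5 of the 8 members were at least 2-fold higher than in normal medium and 0 were at least 2-fold lower, beside 12.1% of 13715 genes higher and 6.07% lower. The 5 were Olr1, Marco, Cd163, Msr1 and Stab1. With CH223191 in both cultures, 4 of 8 were higher and 0 lower, beside 11.9% and 7.78% of all genes, Msr1 being the one no longer past 2-fold. A gene was counted as changed where its log2 ratio, taken after adding 0.5 reads, was at least 1 in size and at least 1 of the 2 libraries had more than 3 reads. Olr1, Marco, Cd163 and Stab1 were higher in both comparisons, which share no library, beside 8.04% of all genes higher and 3.32% lower in both. Marco and Cd163 passed the filter of 10 reads in a library only through the cultures with 4T1-CM, in which they are high. A filter of 10 reads in every library, which drops both, left 3 members higher with DMSO (Olr1, Msr1 and Stab1). With CH223191 it left 2, Olr1 and Stab1, which were thus the members higher in both comparisons under that filter. The shares of genes under that filter were 7.22% and 7.38%. The median log2 ratio of the 8 was 1.07 with DMSO and 0.95 with CH223191, and that of all genes was 0.0079 and 0.016. Marco and, with CH223191, Cd163 lie above these medians also when set against the level of 3 reads, so that this setting could not change the medians. The counting interval lay apart from 0 for 8 of 8 members with DMSO and 6 of 8 with CH223191, beside 60% and 62.9% of all genes.

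**Figure D2:**
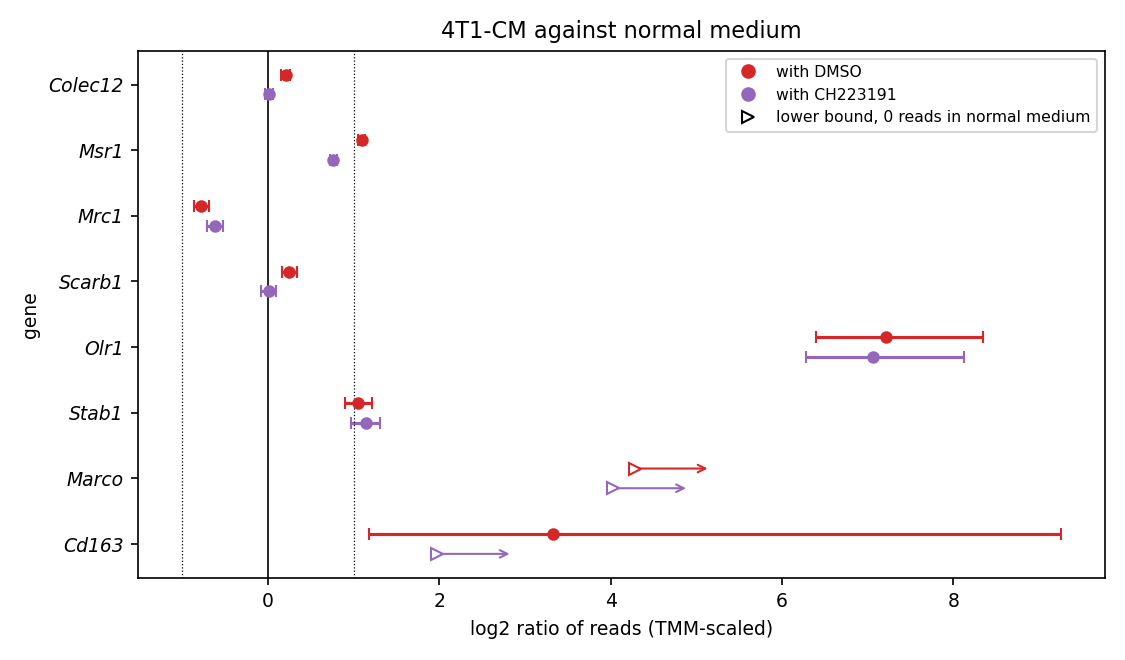
Log2 ratio of each receptor mRNA in 4T1-CM against normal medium, with DMSO (red) and with CH223191 (purple). Bars are 95% intervals of counting error, open triangles with arrows are lower bounds for genes with 0 reads in normal medium, and dotted lines mark 2-fold. Olr1 lies at 7.21 and 7.06, and Mrc1 alone lies to the left of 0 in both comparisons.

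Olr1, the lectin-like receptor that binds oxidized LDL, had the largest log2 ratio of the 8 with a prior count of 0.5 in both comparisons of media, although no upper limit can be set for Marco, which had 0 reads in normal medium. Normal medium gave 10 reads with DMSO and 11 with CH223191, and 4T1-CM gave 1708 and 1567. These are 0.627, 0.692, 97.6 and 96.5 CPM. Both libraries with 4T1-CM stood far above both without it, and the counting intervals of the 2 sets were far apart. The level was 156 times that of normal medium with DMSO (interval 84.4 to 325, log2 ratio 7.21) and 139 times with CH223191 (77.7 to 280, log2 ratio 7.06). A lower ratio was found for 99.9% of genes in both comparisons. Per kilobase, Olr1 stood at the 8.71 percentile of genes kept in normal medium with DMSO and at the 88.3 percentile in 4T1-CM with DMSO.

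Marco, a class A receptor for bacteria and unopsonized particles, had 0 reads in both libraries of normal medium, 64 in 4T1-CM with DMSO and 50 with CH223191. In CPM the last 2 values are 3.66 and 3.08. Reads were thus found in the 2 libraries with 4T1-CM, and in normal medium the mRNA was not detectable at this depth. Set against the level of 3 reads in a library without it, Marco was 19.4-fold higher with DMSO and 16.3-fold higher with CH223191. The counting intervals of the ratios reach down to 15.3-fold and 12.8-fold. It stayed a gene of low abundance, at 1.90 and 1.60 CPM per kilobase, the 33.2 and 30.3 percentile of genes kept. Of 6 neutrophil markers, 2 were at least 2-fold higher and 1 lower with 4T1-CM in each comparison. Their sum was 9.16, 13.8, 154 and 72.1 CPM in the order normal medium with DMSO, normal medium with CH223191, 4T1-CM with DMSO and 4T1-CM with CH223191. The most abundant of the 6 was S100a8 in normal medium and Mmp8 in 4T1-CM. S100a8 had 99, 190, 560 and 412 reads in that order, and Mmp8 had 35, 21, 2142 and 759, both at least 2-fold higher with 4T1-CM in both comparisons. Cxcr2 had 12 and 9 reads in normal medium and 2 and 0 in 4T1-CM, and S100a9, Ly6g and Retnlg had 0 reads in every library. The part of neutrophils in the values of Olr1, Marco and Cd163 was not tested.

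Msr1, the founding class A receptor for acetylated LDL and lipid A, was abundant in every library. Normal medium gave 6437 reads with DMSO and 7790 with CH223191, and 4T1-CM gave 15082 and 13497, or 404, 490, 862 and 831 CPM. The 2 libraries with 4T1-CM were both above the 2 without. The level with 4T1-CM was 2.13-fold higher with DMSO (interval 2.07 to 2.20, log2 ratio 1.09) and 1.70-fold with CH223191 (1.65 to 1.74, log2 ratio 0.76), so that it was past 2-fold in the first comparison only. The response with CH223191 was smaller by 0.33 on the log2 scale, with a counting interval of the difference, CH223191 minus DMSO, from -0.39 to -0.27. The difference came with a higher level of Msr1 with CH223191 in normal medium, 490 against 404 CPM, beside 831 against 862 CPM in 4T1-CM. Of the 9 macrophage markers, 6 were at least 2-fold higher in 4T1-CM with DMSO and 5 with CH223191, with 0 lower, and their sums were 14047 and 18292 CPM in normal medium and 37583 and 40126 CPM in 4T1-CM. The part of macrophage content in the values of Msr1 was not tested.

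Colec12, a class A receptor with a C-type lectin domain that is better known from endothelium and stroma, was one of the most abundant members. In the same order of libraries it had 6164, 7303, 7800 and 7547 reads, or 387, 459, 446 and 465 CPM. The lowest value was that of normal medium with DMSO, and the other 3 libraries lay close together. With 4T1-CM the log2 ratio was 0.20 with DMSO (0.16 to 0.25) and 0.02 with CH223191 (-0.03 to 0.06). Neither value reached 2-fold.

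Because Colec12 is also used by fibroblasts and endothelial cells, the markers of these cells are given beside it. The 6 fibroblast genes, led by Col1a2, summed to 63.0, 30.1, 149 and 127 CPM in the order above, and the 8 endothelial genes, led by Vwf, to 109, 79.2, 44.2 and 38.6 CPM. Of the fibroblast genes 4 passed 2-fold upwards and 0 downwards in each comparison of media. The endothelial genes were mixed, with 2 higher and 2 lower with DMSO and 3 higher and 2 lower with CH223191. Vwf and Stab2 were lower in both, while Pecam1 (3, 1, 31 and 22 reads) and Cdh5 (14, 10, 60 and 37 reads) were higher in both, and Lyve1, with at most 12 reads, was higher with CH223191. Tek and Emcn had 0 reads in every library. The part of these cells in the values of Colec12, Stab1, Scarb1, Mrc1 or Olr1 was not tested.

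Stab1, a large scavenger receptor for acetylated LDL, SPARC and apoptotic cells that marks tissue macrophages and sinusoidal endothelium, had 497, 417, 1133 and 940 reads in the same order, or 31.2, 26.2, 64.7 and 57.9 CPM. Both libraries with 4T1-CM were above both without it. With 4T1-CM it was 2.08-fold higher with DMSO (1.87 to 2.31, log2 ratio 1.05) and 2.21-fold with CH223191 (1.96 to 2.48, log2 ratio 1.14), and both intervals reach below 2-fold. The difference between the responses was 0.09 (-0.14 to 0.31). Its 3′ end overlaps 112 bases of Nt5dc2, a gene on the opposite strand with 307 to 428 reads per library, and whether the counting used the strand is not given in the sources used here. The paralogue Stab2, named after its values were seen, had 34 and 34 reads in normal medium and 5 and 4 in 4T1-CM, the opposite direction.

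Cd163, which clears haemoglobin bound to haptoglobin, was rare in these cells. Normal medium gave 1 read with DMSO and 0 with CH223191, and 4T1-CM gave 16 and 12. The levels with 4T1-CM, 0.914 and 0.739 CPM, were above the level of 3 reads. The ratio with DMSO, taken over the 1 read found, was 14.6, with a counting interval from 2.26 to 611. With CH223191 the ratio against the level of 3 reads was 3.92, and the counting interval reaches down to 2.72. These ratios have unlike denominators and cannot be compared with each other. Computed alike, with the same prior count, the log2 ratios were 3.32 with DMSO and 4.61 with CH223191. Both rest on 0 or 1 read in normal medium. In the same libraries Hp, the gene of haptoglobin, had 29, 37, 12581 and 10714 reads. Its log2 ratios were 8.60 (8.10 to 9.20) with DMSO and 8.13 (7.68 to 8.65) with CH223191.

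Scarb1, the receptor for selective uptake of cholesterol ester from HDL, had 1868, 2215, 2440 and 2273 reads, or 117, 139, 139 and 140 CPM. Normal medium with DMSO was the low library, and the other 3 differed by less than counting error. The log2 ratio with 4T1-CM was 0.25 with DMSO (0.16 to 0.34) and 0.01 with CH223191 (-0.08 to 0.09), and the difference between the 2 responses was -0.24 (-0.36 to -0.12). The sign of the value with CH223191 turned with the size factors of DESeq2. As for Colec12, normal medium with DMSO was lowest.

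Mrc1, the macrophage mannose receptor, was the member with less mRNA in 4T1-CM. Normal medium gave 2735 reads with DMSO and 2254 with CH223191, and 4T1-CM gave 1751 and 1503, or 172, 142, 100.03 and 92.5 CPM. Both libraries with 4T1-CM lay below both without. The level was changed by -41.7% with DMSO (log2 ratio -0.78, interval -0.87 to -0.69) and by -34.7% with CH223191 (-0.62, interval -0.71 to -0.52). It did not reach 2-fold in either comparison. Mir511, a microRNA gene within Mrc1, had 0 reads in each library.

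The make-up of the group shifted accordingly. As shares of the summed CPM per kilobase of the 8 members, Colec12 held 52.0% in normal medium with DMSO and 39.7% in 4T1-CM with DMSO, Msr1 28.4% and 40.2%, Mrc1 12.0% and 4.65%, and Olr1 0.0784% and 8.09%. With CH223191 the shares of Olr1 were 0.0754% and 8.03%, and those of Mrc1 8.66% and 4.32%. Summed over the 8 genes, the level was 1111 and 1257 CPM in normal medium and 1713 and 1686 CPM in 4T1-CM.

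**Figure D3:**
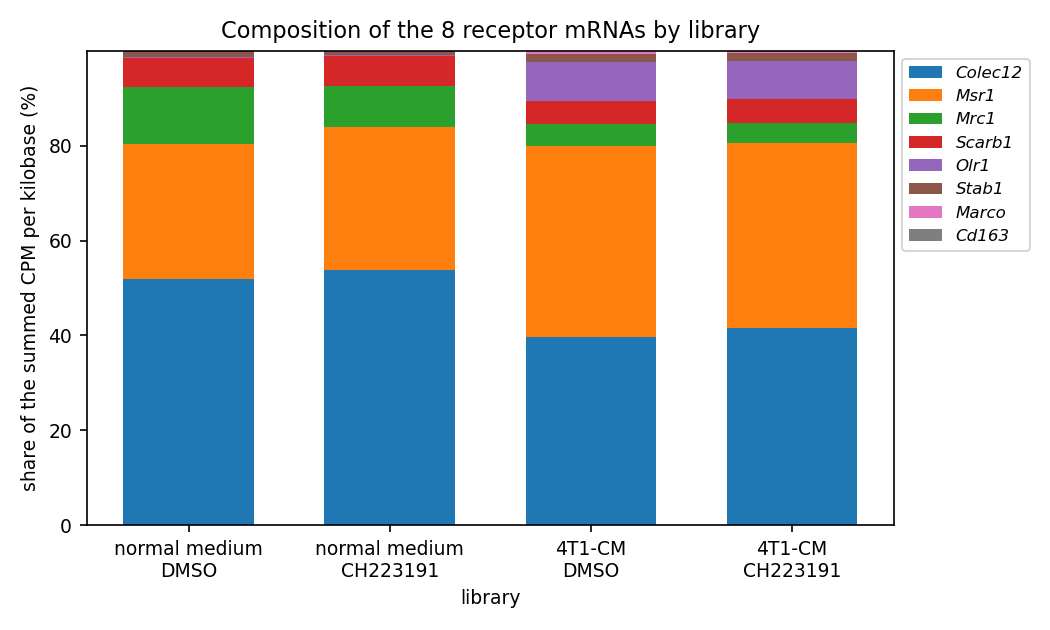
Share of each receptor in the summed CPM per kilobase of the 8 mRNAs, one bar per library. The Olr1 band is visible in the 2 bars with 4T1-CM, at 8.09% and 8.03%, and the Mrc1 band is wider in normal medium.

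CH223191 changed no member by 2-fold. In normal medium 6 members could be compared, since Marco and Cd163 had at most 1 read, and 0 were at least 2-fold higher or lower, beside 4.36% of all genes higher and 2.98% lower. In 4T1-CM, 0 of 8 reached 2-fold in either direction, beside 2.71% and 2.52%. Over both media together 0 members did so, beside 0.605% of all genes higher and 0.372% lower in both. Smaller differences between the libraries exceeded counting error for 5 of 6 members in normal medium and 4 of 8 in 4T1-CM, where 40.9% and 26.8% of all genes did so. In normal medium Msr1, Scarb1 and Colec12 were higher with CH223191, with log2 ratios of 0.28 (0.23 to 0.33), 0.25 (0.16 to 0.34) and 0.25 (0.20 to 0.30), and Mrc1 and Stab1 were lower, at -0.28 (-0.36 to -0.19) and -0.25 (-0.44 to -0.06). In 4T1-CM the same genes had -0.05 for Msr1 (0.11 in a fit that takes 1 effect of CH223191 for both media), 0.01 for Scarb1 (-0.01 with the size factors of DESeq2), 0.06 for Colec12, -0.11 for Mrc1 (-0.21 to -0.01) and -0.16 for Stab1 (-0.29 to -0.04). Mrc1 and Stab1 were thus lower with CH223191 in both media, by at most 0.28 on the log2 scale. Olr1 had 0.13 (-1.23 to 1.53) without 4T1-CM and -0.02 (-0.12 to 0.08) with it, and in 4T1-CM Marco had -0.25 (-0.81 to 0.31) and Cd163 -0.29 (-1.52 to 0.86). Whether differences of this size exceed those between 2 cultures treated alike cannot be told with 1 library per condition.

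**Figure D4:**
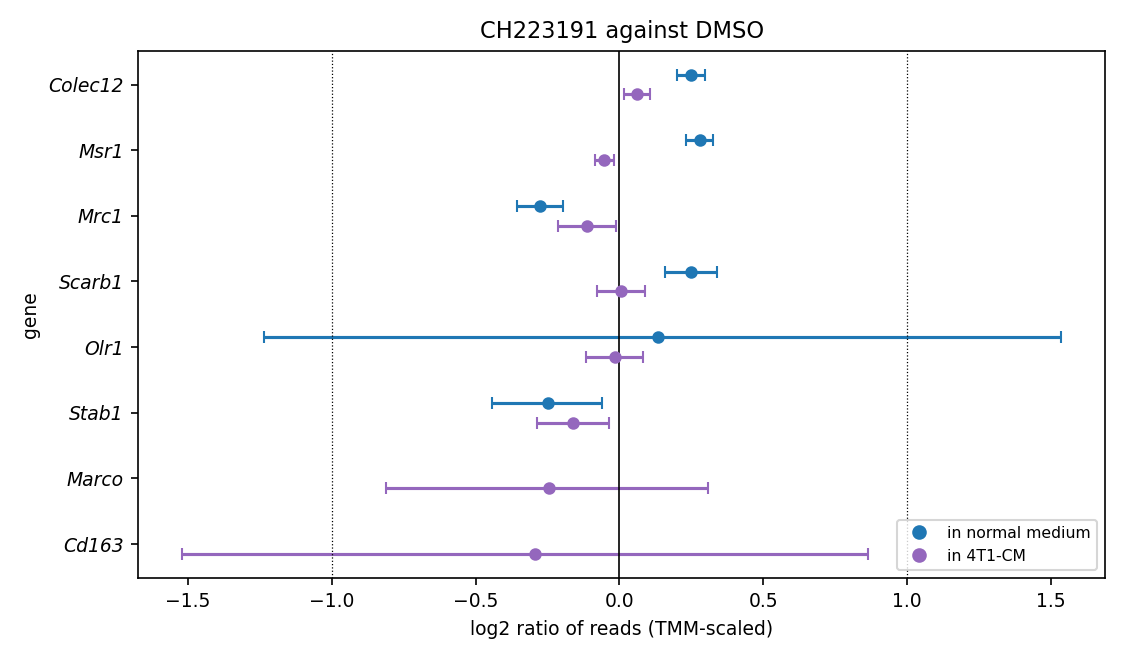
Log2 ratio of each receptor mRNA with CH223191 against DMSO, in normal medium (blue) and in 4T1-CM (purple), with 95% intervals of counting error and dotted lines at 2-fold. Every point lies between -0.29 and 0.28, and Marco and Cd163 have no point in normal medium, where they had at most 1 read.

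Other scavenger receptors included genes past 2-fold in both directions. Of 16 genes, 13 were kept (at least 10 reads in a library). With 4T1-CM and DMSO 3 were at least 2-fold higher and 1 lower, and with CH223191 1 was higher and 2 lower, with median log2 ratios of 0.23 and 0.33. Over all genes 12.1% were higher and 6.07% lower with DMSO, and 11.9% and 7.78% with CH223191, and the counts of this list and of those that follow are descriptions to be set beside these shares. Stab2 was lower in both and Ssc5d higher with DMSO, both rare and named after their values were seen. Cxcl16, a transmembrane chemokine that also binds oxidized LDL, had 270, 241, 7287 and 7346 reads in the order used above, with log2 ratios of 4.62 (4.44 to 4.80) and 4.90 (4.71 to 5.09). Clec7a, the beta-glucan receptor dectin-1, had 1.19 (1.14 to 1.23) and 0.92 (0.88 to 0.97). Cd36, the class B relative of Scarb1 and a receptor for oxidized LDL and fatty acids, was lower, at -0.995 (-1.01 to -0.98) with DMSO, just short of 2-fold, and -1.07 (-1.09 to -1.05) with CH223191. Its level was 3968 CPM in normal medium with DMSO and 1991 CPM in 4T1-CM with DMSO.

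Of 11 genes of the mannose receptor family and other mannose-binding lectins, 7 were kept. In 4T1-CM with DMSO 4 passed 2-fold upwards and 0 downwards, and with CH223191 3 and 0 did so, the medians being 1.01 and 0.76. Ly75 (DEC-205), the endocytic relative of Mrc1 that directs antigen to presentation, had log2 ratios of 1.01 (0.89 to 1.13) and 1.28 (1.15 to 1.41). Clec4e (Mincle), a receptor for mycobacterial glycolipids and dead cells, had 64, 81, 6396 and 4354 reads, with 6.50 (6.15 to 6.89) and 5.71 (5.40 to 6.05), and Clec4n (dectin-2) had 2.77 and 2.48. The other gene past 2-fold with DMSO was Pla2r1, a rare relative of Mrc1 named after its values were seen. Mrc1 was lower in the same libraries in which these 3 lectins were higher.

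The genes that process what these receptors bring in were counted in the same way. Of 13 genes for handling of lipoprotein cholesterol, all 13 kept, 1 was higher and 3 lower with DMSO, and 1 higher and 4 lower with CH223191 (medians -0.51 and -0.42). The higher one was Abca1, which exports cholesterol to apolipoproteins, at 2.65 and 2.68. Lipa, the lysosomal acid lipase, had -1.36 and -1.69, Plin2, which coats lipid droplets, -1.13 and -1.30, and Pparg, the nuclear receptor known to induce Cd36, -2.13 and -1.71. The last gene lower with CH223191 was Nr1h3, given below. Of 13 genes of endocytic uptake, 1 was higher and 0 lower in both comparisons, the medians being 0.08 and 0.03. That gene was Cav1, the caveolar coat protein, at 5.55 and 5.93.

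Of 14 efferocytosis genes 11 were kept, with 2 higher and 1 lower with DMSO and 1 and 1 with CH223191. Cd300lf, a phosphatidylserine receptor, had 1.84 and 2.39, and Axl, a receptor tyrosine kinase for bridged phosphatidylserine, had 1.47 and 0.53. The lower genes were Tyro3, named after its values were seen, with DMSO and Itgb3 with CH223191. Of 11 genes of haemoglobin and haem handling 10 were kept, with 4 higher and 2 lower with DMSO and 3 and 2 with CH223191. Beside Hp, these included the ferritin heavy chain Fth1 (1.501 and 1.64), the haem oxygenase Hmox1 (1.30 with DMSO and 0.80 with CH223191) and the biliverdin reductase Blvra (-1.31 and -1.16). The rare genes Spic, which was higher, and Slc40a1, the iron exporter, which was lower, complete these counts and were named after their values were seen.

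The genes of alternative activation that are often read together with Mrc1 included genes past 2-fold in both directions. Of 13 genes 10 were kept, with 3 higher and 2 lower in 4T1-CM with DMSO and 4 higher and 2 lower with CH223191. Arg1, which hydrolyses arginine, had 520, 936, 32359 and 39348 reads and log2 ratios of 5.82 (5.70 to 5.95) and 5.36 (5.27 to 5.46). Tgm2 had 3.08 and 2.82, and Egr2 had -1.39 in both. The remaining genes past 2-fold, named after their values were seen, had a mean under 10 CPM, namely Ccl22 and, with CH223191, Pdcd1lg2, which were higher, and Ccl24, which was lower. Chil3 and Retnla, which IL-4 induces, had at most 6 reads in any library. Of 14 transcription factors tied to these receptors, all 14 kept, 1 was higher and 2 lower with DMSO and 3 higher and 2 lower with CH223191. Pparg is given above, and Nr1h3 (LXR alpha) had -0.72 with DMSO and -1.56 with CH223191. Cebpb had 0.50 and 1.77. Ahr, the target of CH223191, had 30, 21, 150 and 167 reads in the order used above and log2 ratios of 2.17 and 2.93 with 4T1-CM, and Maf had -1.05 with DMSO. Both were named after their values were seen.

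With CH223191 against DMSO, among the other scavenger receptors the rare genes Ager and Ssc5d were at least 2-fold higher and Scarf2 lower in normal medium, and Ager was higher in 4T1-CM. The mannose-binding list had 0 genes past 2-fold in normal medium and Pla2r1, lower, in 4T1-CM. Among the alternative activation genes Pdcd1lg2, with 16 reads against 2, was higher in 4T1-CM. These genes were named after their values were seen. Over all genes, 4.36% were higher and 2.98% lower in normal medium, and 2.71% and 2.52% in 4T1-CM. Cebpb was lower in normal medium, 112 CPM with CH223191 against 228 CPM with DMSO, with a log2 ratio of -1.03 (-1.11 to -0.95), and had 0.24 in 4T1-CM.

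**Figure D5:**
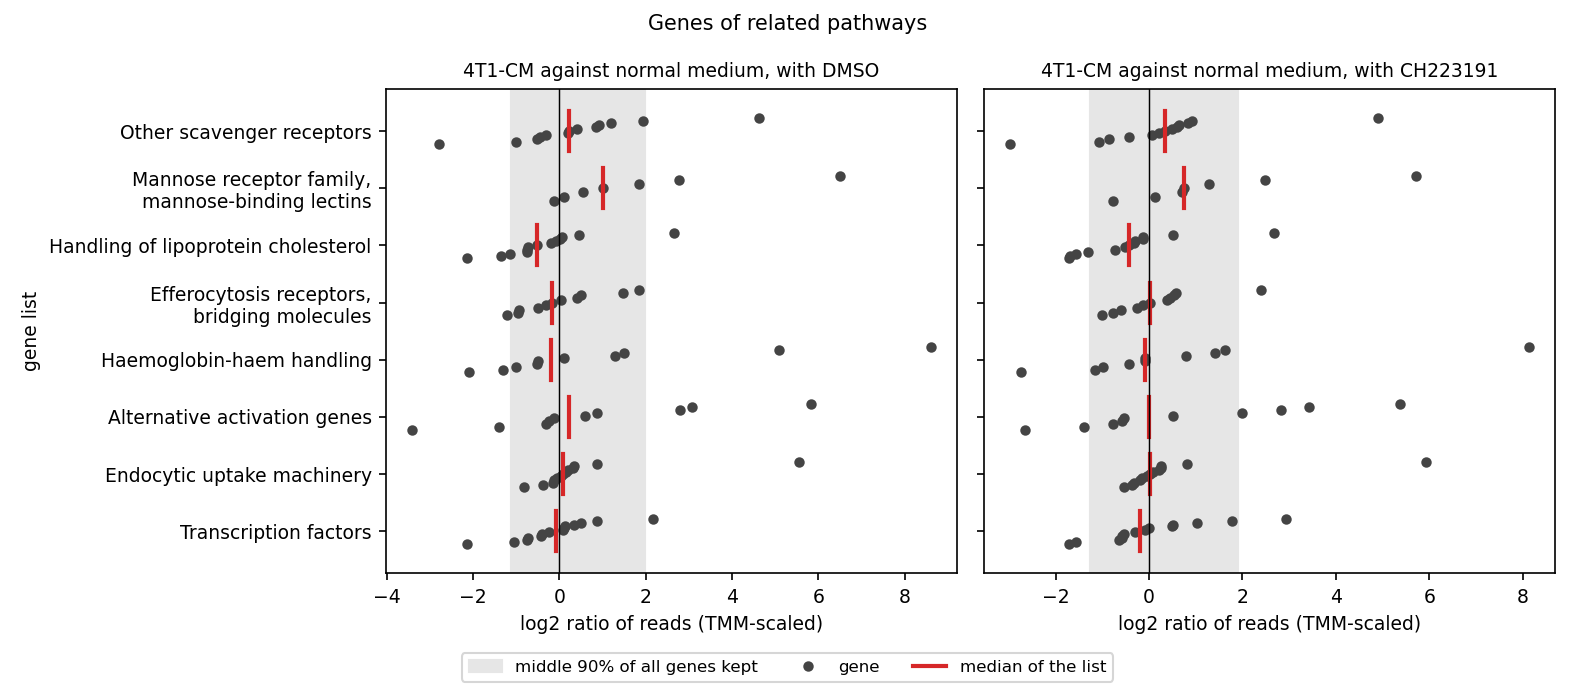
Log2 ratio in 4T1-CM against normal medium for the genes kept of 8 lists related to the receptors, with DMSO (left) and with CH223191 (right). Dots are genes, red lines the list medians, and the grey band the middle 90% of all genes kept. The medians lie between -0.51 and 1.01, and single genes such as Hp (8.60 and 8.13) lie far outside the band. Spic, with 0 reads in 1 library, is drawn at its ratio after adding 0.5 reads, so that its position with DMSO depends on that choice.

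The genes whose profile over the 4 libraries was most like that of a member were sought among the 8323 genes that averaged 10 CPM or more, by the Euclidean distance between log2 CPM centred on each gene's mean. The nearest to Olr1 were AI504432, at a distance of 0.54, and Tgfbi, at 0.77, and 0 genes lay within 0.25. Msr1 was nearest to Srgn (0.03) and Sipa1l1 (0.04), with 118 genes within 0.25. Mrc1 was nearest to Vcpkmt and B4galnt1, and Stab1 to Ifih1 and Jak2, with 350 and 93 genes within 0.25. Scarb1 was nearest to Atxn2l and Nudt21, and Colec12 to Mlkl and Tecpr2, with 1217 and 1205 genes within that distance. With 4 libraries many profiles are alike.

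In the gene table, Olr1 (ENSMUSG00000030162) lies on chromosome 6 from 129485244 to 129507165 and Cd163 (ENSMUSG00000008845) on the same chromosome from 124304656 to 124330527. Marco (ENSMUSG00000026390) lies on chromosome 1 from 120474538 to 120505024, Mrc1 (ENSMUSG00000026712) on chromosome 2 from 14229392 to 14332057, Scarb1 (ENSMUSG00000037936) on chromosome 5 from 125277087 to 125341094, Msr1 (ENSMUSG00000025044) on chromosome 8 from 39581685 to 39642673, Stab1 (ENSMUSG00000042286) on chromosome 14 from 31139013 to 31168641 and Colec12 (ENSMUSG00000036103) on chromosome 18. These coordinates are those of GRCm38, and for 7 of the 8 genes they were identical to GENCODE M21. The longest annotated transcripts by exon number have 69 exons for Stab1 and 30 for Mrc1, against 8 for Olr1 and 10 for Msr1. Of the 50-base words of their transcripts, 0% were shared with another gene for Marco, Msr1 and Mrc1, and at most 0.690% for Cd163, Stab1, Scarb1 and Olr1. For Colec12 the share was 4.33%, measured on the longer M21 model.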

How the data were processed

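RNA of 4 cultures was sequenced, 1 per condition. The authors deposited a single table of raw counts, whole numbers of reads for each of 54532 genes with no scaling applied. The submitters' processing notes name HISAT2 2.0.5 and DESeq2. The counter, its strand setting and the genome build of these libraries are not given in the sources used here, and gene coordinates were identical to GENCODE M21 (GRCm38) for 53499 of 54409 genes shared by identifier.

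A gene was kept where 1 library or more held 10 reads, which left 13715 genes, the 8 members among them. Libraries were scaled with TMM (edgeR 4.0.16, R 4.3.3), with factors of 0.986 to 1.026. A log2 ratio was taken after adding 0.5 reads, with a 95% interval from the exact Clopper-Pearson limits on the share of reads in each library. A gene with 0 reads in a library was compared with the level of 3 reads there. With 1 library per condition no p-value is given for a pair. The procedures were tested on simulated data.

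The members and the gene lists were chosen with earlier results of these data known. The text names the members, from each list at most 4 genes past 2-fold that averaged 10 CPM or more, ranked by the smaller response to 4T1-CM, the 2 nearest profiles, and genes that overlap a member. A gene of the list of transcription factors that this rule takes is not reported here. Marker genes and others outside this rule were named after their values were seen, Stab2, Chil3 and Retnla among them. Alternatives were the size factors of DESeq2 1.42.0, total counts, other filters, protein-coding genes alone, a prior count of 5 and an additive fit.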

Additional observations from a re-analysis of the deposited data

Results flagged for a closer look

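Msr1 had opposite signs with CH223191 in the 2 media, each counting interval being apart from 0. Without 4T1-CM the log2 ratio against DMSO was 0.28 (0.23 to 0.33), and with it -0.05 (-0.09 to -0.02), a difference of -0.33, 4T1-CM minus normal medium. Normal medium gave 404 CPM with DMSO against 490 CPM with the inhibitor, and 4T1-CM gave 862 against 831 CPM. The difference was not tested across cultures, as each condition has 1 library. With total counts in place of TMM the value in normal medium was 0.22.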

How the results depend on the processing

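No paired analysis was possible because each condition has 1 library and the labels give no replicate numbers. Counts of members past 2-fold changed by less than 1.5 times under all alternatives run except a stricter filter. Where every library had to hold 10 reads, which leaves out Marco and Cd163 by construction, 3 members were higher in 4T1-CM with DMSO and 2 with CH223191. Of 240 values of single members under the alternatives, 7 changed sign, among them Scarb1 and Colec12 in 4T1-CM against normal medium with CH223191, at -0.02 and -0.01 with no filter on low counts, and no value past 2-fold did. With a prior count of 5, the log2 ratios of Marco were 3.65 with DMSO and 3.43 with CH223191 (6.88 and 6.63 with 0.5), and those of Cd163 were 1.67 and 1.73 (3.32 and 4.61 with 0.5). The additive fit, by edgeR's quasi-likelihood method with a term each for medium and inhibitor, leaves 1 residual degree of freedom and takes the difference between the 2 responses as error. In it the log2 effect of 4T1-CM was 7.18 for Olr1, 8.79 for Marco, 4.43 for Cd163, 1.10 for Stab1 and 0.93 for Msr1. It was -0.70 for Mrc1, 0.13 for Scarb1 and 0.11 for Colec12. Marco and Cd163 entered the fit only through the libraries with 4T1-CM, in which they are high. Over all genes it called 2248 upwards and 2228 downwards for medium at an adjusted p under 0.05. The inhibitor term lay between log2 -0.47 for Cd163 and 0.15 for Colec12 over the 8 members. For the variance of each member the additive fit drew on all genes, with 9.65 prior degrees of freedom beside the 1 residual. With 1 library per condition its p-values do not measure the spread between cultures. Depth limits Marco and Cd163, which had 0 or 1 read in normal medium.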
